A study of Saccharomyces cerevisiae with 6 samples.

Results

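Budding yeast has its own genes for the steps by which xylose could enter metabolism, and 6 of them are described here: the aldo-keto reductase genes GRE3, GCY1 and YPR1, the aldehyde reductase gene ARI1, the xylitol dehydrogenase gene XYL2 and the xylulokinase gene XKS1. They were chosen by name, as the probe sets annotated to these genes, out of 5656 genes measured. Each of the 6 had exactly 1 probe set annotated to it alone, and all 6 were among the 5462 genes that entered the fit. All values are messenger RNA measurements on Affymetrix yeast arrays, with 1 array for each of 6 conditions.

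The strain, YSX3, is of mating type MATalpha and carries 3 genes of the xylose-fermenting yeast Pichia stipitis: XYL1 at leu2, XYL2 at ura3 and XYL3 at a Ty3 element. These insertions, marked by LEU2, URA3 and NEO, are shared by every group. The petite groups are FPL-YSX3P, a respiration-deficient mutant. Its xylose sample was grown on glucose to an OD600 of 1, moved to xylose medium and kept there for 24 hours, and its glucose sample was taken at an OD600 of 1; no sugar concentration or flask is stated for it. Oxygen-limited cultures (50 ml of YP with 40 g/L xylose or glucose, 125 ml flasks, 100 rpm) were taken at an OD600 of 30. Aerobic cultures (200 ml of YP with 20 g/L xylose or glucose, 1000 ml flasks, 300 rpm) were taken at an OD600 of 1. Oxygen supply, sugar concentration and cell density therefore differ together between these backgrounds. No condition had a replicate array, and that number limits the precision of all values. The introduced Pichia genes have no probe set, so XYL2 below always means the yeast's own gene, YLR070C. Whether its probe set also binds message of the introduced XYL2 was not tested.

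Xylose-using yeasts such as P. stipitis take an oxidoreductive route. An aldose reductase turns xylose into xylitol, usually with NADPH. A xylitol dehydrogenase turns xylitol into xylulose with NAD, and xylulokinase then passes xylulose 5-phosphate to the pentose phosphate pathway. Budding yeast does not grow well on xylose on its own, although its genome encodes an enzyme for each of these steps. GRE3 encodes its main aldose reductase and is also known as a stress-induced gene. Aldo-keto reductases are broad in substrate, and several reduce other aldehydes and ketones.

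Probe intensities were scaled to a common array median, and an intensity floor of 61.7, the 25th percentile of the scaled values, marks what was too dim to order. Relative to the aerobic glucose array, the unscaled medians were higher on the log2 scale by 0.31 for either petite array, by 0.38 for either oxygen-limited array and by 0.05 for the aerobic xylose array. After scaling, the median of 9 bacterial and phage hybridisation control probe sets was 586 and 557 on the petite arrays, 158 and 171 on the oxygen-limited arrays, and 223 and 266 on the aerobic arrays, xylose first in each pair. The signal of these 9 controls was thus close within each sugar pair and differed between backgrounds, and background and array handling cannot be told apart. A separate control probe set for the yeast gene URA3 was at 1196 on aerobic xylose and 3190 on aerobic glucose. It was at 2095 and 2638 on the petite arrays and at 3192 and 2923 on the oxygen-limited arrays, xylose first. The ordinary URA3 probe set was at 1470 and 1644 on the aerobic arrays. The cause of this difference was not tested. The labels were checked with marker genes. The 7 mitochondrially encoded markers summed to 291 and 215 on the petite arrays and to 1631 or more on the other 4, and 1 of the 7, COX3, was above the floor on the petite arrays. COX3 went against the sum, at 204 and 137 on the petite arrays and 43.6 and 57.9 on the aerobic arrays. COX2 was below the floor on all 6 arrays. HXK1, which glucose represses, was at 2467 or more on every xylose array and at 525 or less on every glucose array. The 3 alpha-cell markers summed to 1143 on the petite xylose array and to between 4259 and 6701 on the other 5, so this array stood apart, and the part of this in its values below was not tested. Of 4 a-cell markers, STE2 and BAR1 were at most 102 on any array, while the pheromone genes MFA1, between 488 and 1245, and MFA2, between 135 and 287, were above the floor on all 6, so the a-cell list as a whole was not absent. Of 5 low-oxygen markers, COX5B was higher under oxygen limitation by 2.04 (limma adjusted p = 0.0168) and ANB1 lower, at -1.55 (limma adjusted p = 0.0306), so these markers did not move as a group.

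Xylose against glucose is the main contrast for these genes. GCY1 rose 4.02-fold on xylose over the 3 backgrounds, with single pairs between 3.03-fold and 5.80-fold, and ARI1 fell to a level 4.18-fold lower, with single pairs between 3.75-fold and 4.79-fold. GRE3, XYL2 and XKS1, the genes closest to the xylose route itself, did not pass the test, and each was higher on xylose in aerobic and oxygen-limited cells and lower in petite cells. YPR1, the paralog of GCY1, was lower on xylose in all 3 backgrounds but missed the threshold. Background and sugar were the terms of a limma model fitted to each gene, and a gene was called at an adjusted p under 0.05 over all 5462 genes. It called 2 of the 6 in either direction, against 0.751% of all genes: 1 higher, against 0.677%, and 1 lower, against 0.0732%. At an unadjusted p under 0.05 the counts were 1 higher and 2 lower, against 12.0% and 9.79% of all genes.

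Within single array pairs, GCY1 was the 1 gene of the 6 at least 2-fold higher on xylose in each background, where 5.78% of genes were so in petite cells, 8.78% under oxygen limitation and 3.13% in aerobic cells. ARI1 was at least 2-fold lower in each, where the shares were 5.28%, 4.22% and 2.1% in the same order, and under oxygen limitation YPR1 was so as well. Of 4890 genes compared in all 3 pairs, 1.43% were at least 2-fold higher in each and 0.245% at least 2-fold lower in each.

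**Figure D1:**
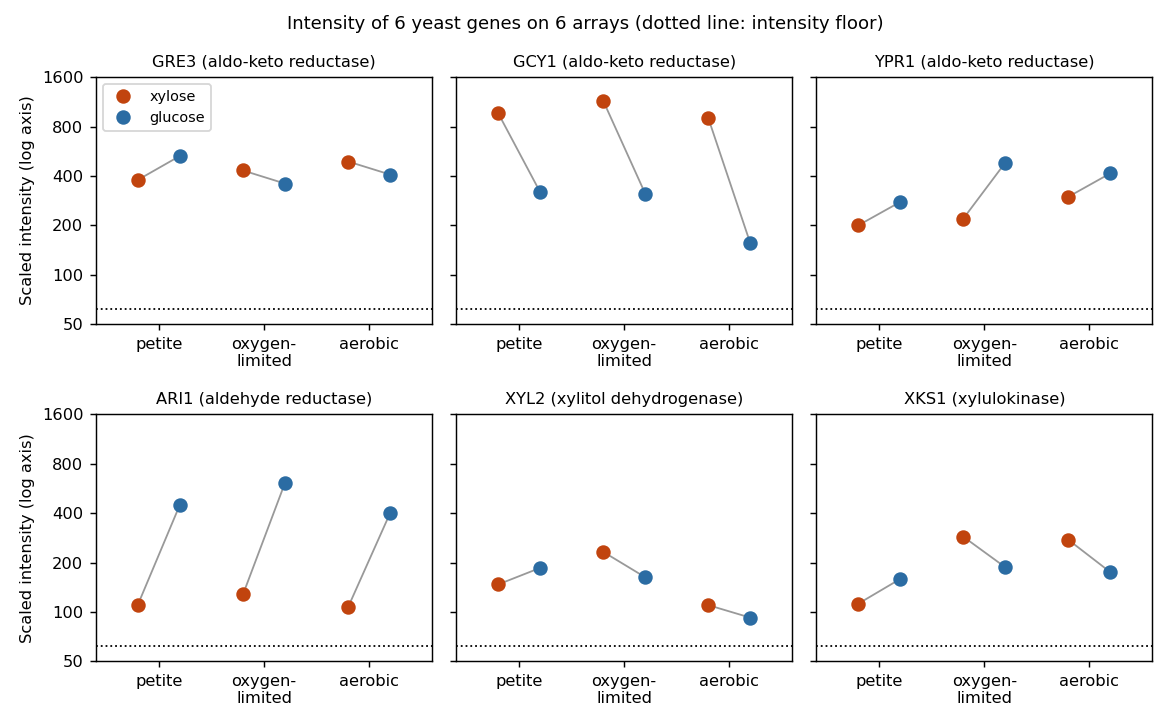
Scaled intensity (log axis) of the 6 genes, one panel per gene, with the xylose array left of the glucose array in petite, oxygen-limited and aerobic cells and 1 point per array. GCY1 is at 902 or more on xylose and 319 or less on glucose, ARI1 at 128 or less on xylose and 401 or more on glucose, and no point lies at the dotted intensity floor of 61.7.

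GCY1 encodes an NADP-dependent aldo-keto reductase that acts as a glycerol dehydrogenase. In petite cells its scaled intensity was 967 on xylose and 319 on glucose. Under oxygen limitation it was 1150.0 on xylose and 312 on glucose, and in aerobic cells 902 on xylose and 156 on glucose. The 3 xylose arrays lay above all 3 glucose arrays, a separation that 6.94% of genes showed in this direction. The fitted difference was 2.01 ± 0.22 on the log2 scale (SE, n = 3 pairs; higher in 3 of 3 pairs; limma adjusted p = 0.0421), a 4.02-fold rise with a 95% interval of 2.73 to 5.92.

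Its 3 xylose values lay within 0.35 of each other on the log2 scale, whereas the glucose values spread more. The aerobic glucose array was the lowest of all 6, and it lay 1.00 below the next array, oxygen-limited glucose. That gap exceeds the 0.38 that the fit gives as the SD of a difference between 2 arrays. Here and below, this SD comes from the residual of the fit to these same 6 arrays. It holds no spread between replicates, so it serves as a scale for the gaps and not as a test of them. The gaps among the 3 xylose arrays, and between the petite and oxygen-limited glucose arrays, were smaller than that SD. The sugar difference was accordingly 1.60 in petite cells, 1.88 under oxygen limitation and 2.54 in aerobic cells. A larger increase was seen for 97 of 5246 genes in the petite pair, 114 of 5217 in the oxygen-limited pair and 23 of 5139 in the aerobic pair.

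The call for GCY1 depended on the arrays and settings used, as did the calls over all genes. Without the oxygen-limited pair the estimate was 2.07 with a limma adjusted p of 0.203, and without the petite pair 2.21 with 0.0777, while without the aerobic pair it was 1.74 with 0.0492. It also missed the threshold when the floor was the 40th percentile (limma adjusted p = 0.112) and with the mean over each gene's probe sets (limma adjusted p = 0.0526), although its own value was 2.01 in both. Over all genes, limma called 0 higher without the oxygen-limited pair and 0 with that floor. It called 12 higher without the petite pair and 22 with the mean over probe sets, against 37 in the main fit.

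ARI1 encodes an NADPH-dependent aldehyde reductase of the short-chain dehydrogenase type, a different protein family from the aldo-keto reductases. Its scaled intensity was 111 on xylose and 452 on glucose in petite cells. In oxygen-limited cells it was 128 on xylose and 614 on glucose, and in aerobic cells 107 on xylose and 401 on glucose. All 3 xylose arrays lay below all 3 glucose arrays, as was the case for 3.63% of genes. The fitted difference was -2.06 ± 0.15 (SE, n = 3 pairs; limma adjusted p = 0.0158; lower in 3 of 3 pairs), so that ARI1 was 4.18-fold lower on xylose, with a 95% interval of 3.19 to 5.48.

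The decrease was of like size in each background, at -2.02 in petite cells, -2.26 under oxygen limitation and -1.91 in aerobic cells. In these pairs 15, 8 and 7 genes had a larger decrease. The xylose arrays differed from one another by less than the SD of a difference between 2 arrays, 0.27, and the glucose array of oxygen-limited cells lay 0.44 above that of petite cells. On xylose the ARI1 signal was 1.74 times the floor at its lowest, so this end of the range was measured and is not a bound. Without the oxygen-limited pair the estimate was -1.97 (limma adjusted p = 0.144), and without the petite pair -2.08 (limma adjusted p = 0.0701), both short of the threshold. Without the aerobic pair it passed, at -2.14 (limma adjusted p = 0.0329). When the floor was the 40th percentile it was -2.05 (limma adjusted p = 0.0557). With that floor, without the oxygen-limited pair and without the petite pair, limma called 0 of all genes lower, against 4 in the main fit.

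YPR1 encodes an NADPH-dependent aldo-keto reductase that reduces branched-chain aldehydes, and it is a duplicate of GCY1 from the ancient genome duplication of yeast. Its scaled intensity was 199.7 on xylose and 278 on glucose in petite cells. Under oxygen limitation it was 219.6 on xylose and 482 on glucose, and in aerobic cells 298 on xylose and 415 on glucose. The groups overlap, since the aerobic xylose array lies above the petite glucose array, whereas with the values as deposited all 3 xylose arrays lay below all 3 glucose arrays. The fitted difference was -0.69 ± 0.19 (SE, n = 3 pairs; limma adjusted p = 0.161; lower in 3 of 3 pairs), with a 95% interval of -1.19 to -0.20, and did not pass. The oxygen-limited pair alone was past 2-fold, at -1.13. In the order of its levels the widest gap between neighbours, 0.48, lay between aerobic glucose and aerobic xylose, against an SD of a difference between 2 arrays of 0.34.

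The duplicates GCY1 and YPR1 therefore had sugar differences of opposite sign in each pair. Expressed as a ratio within each array, GCY1 over YPR1 was 4.21-fold higher on xylose than on glucose in petite cells, 8.09-fold higher under oxygen limitation and 8.06-fold higher in aerobic cells. These ratios come from 1 array pair each and were not tested.

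GRE3 encodes the aldose reductase that accepts xylose and also reduces methylglyoxal. Its scaled intensity was 379 on xylose and 529.7 on glucose in petite cells. In oxygen-limited cells it was 432 on xylose and 359 on glucose, and in aerobic cells 489.5 on xylose and 408 on glucose. The groups overlap throughout, and no neighbours in the order of the 6 arrays were further apart than the SD of a difference between 2 arrays, 0.36. Its values spanned 1.48-fold in all, a range smaller than that of most genes, since only 12.7% of genes had a narrower one. The fitted sugar difference was 0.01 ± 0.21 (SE, n = 3 pairs; limma adjusted p = 0.969), and its 95% interval of -0.51 to 0.54 leaves room for a level up to 1.46-fold higher or 1.43-fold lower.

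**Figure D2:**
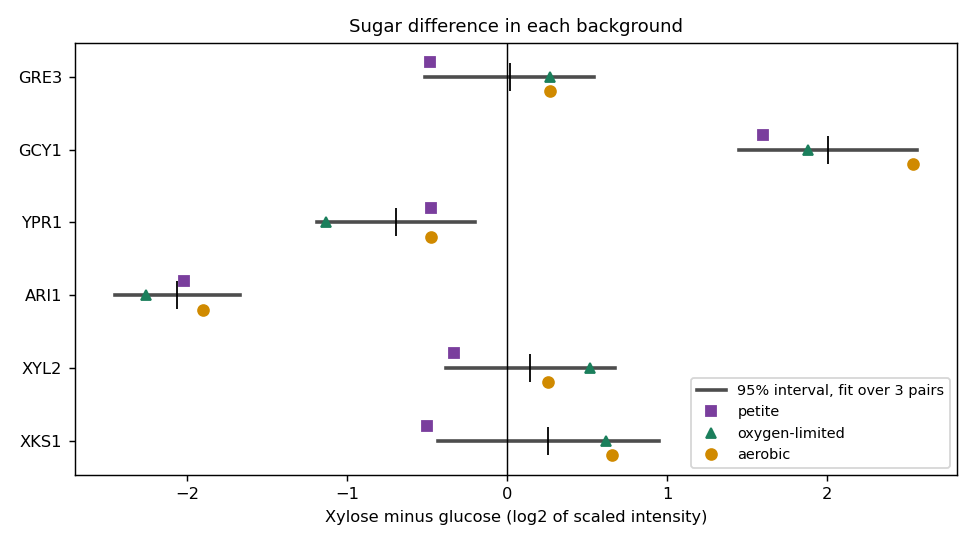
Difference between xylose and glucose on the log2 scale for each gene, as 1 symbol per background, with the fitted value over the 3 pairs as a tick and its 95% interval as a bar. The 3 symbols of GCY1 lie between 1.60 and 2.54 and those of ARI1 between -2.26 and -1.91, while GRE3, XYL2 and XKS1 each have the petite symbol below 0 and the others above it.

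XYL2 encodes the yeast's xylitol dehydrogenase, of the same family as its sorbitol dehydrogenases. Its scaled intensity was 147 on xylose and 186 on glucose in petite cells. Under oxygen limitation it was 233 on xylose and 163 on glucose, and in aerobic cells 110.2 on xylose and 92.4 on glucose. It was above the floor on all 6 arrays but was closest to it on the aerobic glucose array. The sugar groups overlap, and the fitted difference was 0.14 ± 0.21 (SE, n = 3 pairs; limma adjusted p = 0.710), with a 95% interval of -0.38 to 0.67. The single gap between neighbouring arrays above the SD of a difference between 2 arrays, 0.36, was that of 0.42 between petite xylose and aerobic xylose.

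XKS1 encodes xylulokinase, which in this strain is present beside the introduced XYL3 of P. stipitis. Its scaled intensity was 112 on xylose and 159 on glucose in petite cells. In oxygen-limited cells it was 288 on xylose and 187 on glucose, and in aerobic cells 275 on xylose and 175 on glucose. Xylose arrays were thus the 2 highest and also the lowest of the 6. The fitted difference was 0.26 ± 0.27 (SE, n = 3 pairs; limma adjusted p = 0.604), with a 95% interval of -0.43 to 0.95. Gaps between neighbours above the SD of a difference between 2 arrays, 0.47, were 0.56 from aerobic xylose down to oxygen-limited glucose and 0.50 from petite glucose down to petite xylose.

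For GRE3, XYL2 and XKS1 the sign of the sugar difference changed with the background in the same way. GRE3 was at -0.48 in petite cells, 0.27 under oxygen limitation and 0.26 in aerobic cells. The values for XYL2 were -0.34, 0.51 and 0.25 in the same order, and those for XKS1 were -0.50, 0.62 and 0.66. This pattern, lower on xylose in petite cells and higher in both other backgrounds, was found for 3 of the 6 genes and for 10.2% of 4890 genes compared in all pairs. Among these differences that of XKS1 was the largest. Its sugar difference in petite cells lay 1.16 below that in aerobic cells, and 6.77% of all genes had a larger difference in either direction. For GRE3 and XYL2 these shares were 19.4% and 28.9%. The GRE3 values of 0.27 and 0.26 and the XYL2 values of -0.34 and 0.25 were smaller than the SD of a difference between 2 arrays, 0.36 for either gene. All the petite values come from the same array pair. None of these differences was tested, because 1 array per condition leaves no spread to test them against, and the petite xylose sample also differs from the others in having been moved to xylose medium rather than grown there.

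The next comparisons ask how the same genes differ with the background, each over its xylose pair and its glucose pair. Between oxygen-limited and aerobic cells limma called 0 of the 6 genes in either direction, against 8.04% of all genes called higher, 16.0% called lower and 24.0% in either direction. At an unadjusted p under 0.05 it gave 1 higher and 0 lower, where 16.0% of all genes were higher and 25.9% lower. Between petite and aerobic cells it also called 0 of the 6, against 0.0183% of all genes in each direction and 0.0366% in either. Unadjusted, it gave 1 higher and 0 lower, where 11.7% of all genes were higher and 22.2% lower, so these counts were near or below the shares of all genes. In both cases the gene with an unadjusted p under 0.05 was XYL2. These comparisons share the aerobic arrays. No gene of the 6 had both oxygen-limited arrays below both aerobic arrays, as 36.9% of all genes did.

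In single array pairs, 0 of the 6 were at least 2-fold higher in petite than in aerobic cells on xylose (8.44% of all genes) and 1, XKS1, was at least 2-fold lower (13.5%). On glucose GCY1 and XYL2 were at least 2-fold higher (4.72%) and 0 were lower (5.06%). Between oxygen-limited and aerobic cells, XYL2 was at least 2-fold higher on xylose (9.36%) and GCY1 on glucose (4.5%), and 0 of the 6 were at least 2-fold lower on xylose (15.4%) or on glucose (11.6%).

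XYL2 was lowest on the aerobic arrays. Its scaled intensity was 147 and 186 in petite cells and 233 and 163 in oxygen-limited cells, against 110.2 and 92.4 in aerobic cells, xylose first in each. Both the petite and the oxygen-limited arrays lay above both aerobic arrays, which 21.8% of genes showed for petite cells and 25.8% for oxygen-limited cells. The fitted difference was 0.71 ± 0.26 for petite cells (SE, n = 2 pairs; higher in 2 of 2 pairs; limma adjusted p = 0.125) and 0.95 ± 0.26 for oxygen-limited cells (SE, n = 2 pairs; higher in 2 of 2 pairs; limma adjusted p = 0.0514). The oxygen value lay at the edge of the threshold. Of 7 alternatives it passed in 3. These were the values as deposited, at 1.30 (limma adjusted p = 0.0259), the floor at the 10th percentile, at 0.95 (limma adjusted p = 0.0445), and the trend along probe set numbers removed, at 0.98 (limma adjusted p = 0.0391). It missed with the floor at the 40th percentile, at 0.82 (limma adjusted p = 0.0882), and with quantile normalization, at 0.94 (limma adjusted p = 0.0630). The mean over probe sets and the variance trend left it at 0.95, also short (limma adjusted p = 0.0543 and 0.0504). The aerobic values lay at 1.79 and 1.50 times the floor. As deposited, limma called 1032 of all genes higher, against 439 in the main fit.

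GCY1 differed between backgrounds mainly on its glucose arrays. On glucose it was 2.05-fold higher in petite cells and 2.01-fold higher in oxygen-limited cells than in aerobic cells, whereas on xylose the ratios were 1.07 and 1.27. Over both sugars the estimate was 0.57 ± 0.27 for petite cells (SE, n = 2 pairs; limma adjusted p = 0.203) and 0.68 ± 0.27 for oxygen-limited cells (SE, n = 2 pairs; limma adjusted p = 0.122). Neither passed. With the values as deposited, in which the median of all genes was 0.21 in this comparison, the oxygen estimate of GCY1 was 1.03 and passed (limma adjusted p = 0.0486), as did that of ARI1 at 0.79 (limma adjusted p = 0.0398).

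**Figure D3:**
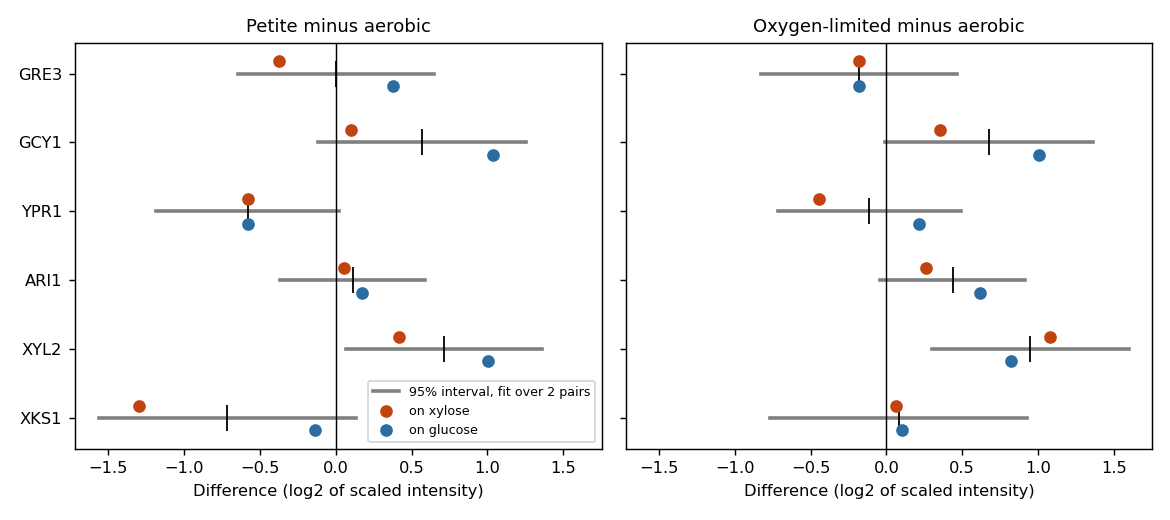
Difference of petite (left) and oxygen-limited (right) cells from aerobic cells on the log2 scale, with 1 point for the xylose arrays and 1 for the glucose arrays, the fitted value as a tick and its 95% interval as a bar. XYL2 is above 0 on both sugars in both panels, and XKS1 in petite cells is at -1.29 on xylose and -0.14 on glucose.

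XKS1 and YPR1 had lower scaled values in petite than in aerobic cells, and this depended on the scaling. XKS1 was at 112 and 159 in petite cells against 275 and 175 in aerobic cells, and YPR1 at 199.7 and 278 in petite cells against 298 and 415 in aerobic cells, xylose first. Both petite arrays lay below both aerobic arrays for these genes, which was also so for 37.9% of all genes. With the values as deposited the groups overlapped for both genes, and XKS1 on glucose turned to 0.17, at 166 in petite cells and 147 in aerobic cells. The fitted differences were -0.71 ± 0.33 for XKS1 (SE, n = 2 pairs; limma adjusted p = 0.197) and -0.58 ± 0.24 for YPR1 (SE, n = 2 pairs; limma adjusted p = 0.158), and neither passed. As deposited they were -0.44 for XKS1 (limma adjusted p = 0.425) and -0.30 for YPR1 (limma adjusted p = 0.444). For XKS1 the single-array differences were -1.29 on xylose and -0.14 on glucose. YPR1 was at -0.58 on either sugar.

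The remaining estimates were small. ARI1 was at 0.11 ± 0.19 in petite cells (SE, n = 2 pairs; limma adjusted p = 0.709) and at 0.44 ± 0.19 in oxygen-limited cells (SE, n = 2 pairs; limma adjusted p = 0.143), both far below its sugar difference in size. GRE3 was at 0.00 with a 95% interval of -0.64 to 0.65 in petite cells and at -0.18 with an interval of -0.83 to 0.46 in oxygen-limited cells. In petite cells its parts had opposite signs, -0.37 on xylose and 0.38 on glucose. XKS1 in oxygen-limited cells was at 0.08, and YPR1 at -0.11 with -0.44 on xylose and 0.22 on glucose. The oxygen estimates of GRE3 and YPR1 turn positive under other scalings, with 0.17 and 0.24 for the values as deposited.

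Related genes of the same chemistry were taken from lists of 26 genes, of which 24 had a probe set of their own. The first list holds 3 other aldo-keto reductases and is not the whole family. ARA1, an NADP-dependent arabinose dehydrogenase, was at 1371 on xylose and 749.7 on glucose in petite cells, at 1556 and 1035 under oxygen limitation, and at 1183 and 612 in aerobic cells. Its estimate was 0.80, that of YJR096W, a reductase of pentoses, 0.67, and that of YDL124W, an alpha-keto amide reductase, 0.56. Each of the 3 was higher in 3 of 3 pairs, but limma called 0 of 3, with 3 higher and 0 lower at an unadjusted p under 0.05 (limma adjusted p from 0.104 to 0.181). Their median was 0.67, against -0.03 for all genes tested.

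The second list holds 5 other aldehyde reductases, among them the relatives of ARI1. Their median sugar difference was -0.35, and limma called 0 of 5 in either direction, also at an unadjusted p under 0.05. The estimates were -0.15 for the methylglyoxal reductase GRE2, which was below the floor on the petite xylose array, -0.35 for YGL039W and -0.36 for YDR541C, against -2.06 for ARI1. The NADPH-dependent alcohol dehydrogenases ADH6 and ADH7 were at -0.63 and -0.06. YDR541C was lower in 3 of 3 pairs, while GRE2, YGL039W, ADH6 and ADH7 were each higher in 1 of 3. For ADH6 that was the aerobic pair, at 1904 on xylose and 1349 on glucose.

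Among polyol and diol dehydrogenases, 1 of the 2 genes with probe sets of their own was called higher, against 0.677% of all genes. BDH2 had a log2 rise of 1.71 in 3 of 3 pairs (limma adjusted p = 0.0488), and BDH1, the butanediol dehydrogenase gene, stood at 1.39 in 3 of 3 pairs (limma adjusted p = 0.0864). BDH2 was below the floor on the oxygen-limited and aerobic glucose arrays, at 33.9 and 51.1, so its fitted value depends on the floor. It was 2.09 for a floor at the 10th percentile and 1.16 for one at the 40th, where it did not pass (limma adjusted p = 0.144). Of 10 alternatives BDH2 passed in 3, and leaving out any 1 of the pairs ended the call, with a limma adjusted p of 0.0864 without the petite pair, 0.203 without the oxygen-limited pair and 0.0667 without the aerobic pair. In the same order limma called 12, 0 and 44 of all genes higher, against 37 in the main fit.

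The sorbitol dehydrogenase genes SOR1 and SOR2, whose products can also oxidise xylitol, are near-identical and share 1 probe set, which cannot tell them apart. That probe set was at 1556 on xylose and 225 on glucose in petite cells, a ratio of 6.92. Under oxygen limitation it was at 141 on xylose and 67.2 on glucose, the glucose value being close to the floor, and in aerobic cells at 173 on xylose and 200.4 on glucose. The petite xylose array thus stood above the other 5. Because the probe set is annotated to both genes, it was not in the fit and has no test. XYL2, on the same arrays, was lower on xylose than on glucose in petite cells, at 147 and 186.

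**Figure D4:**
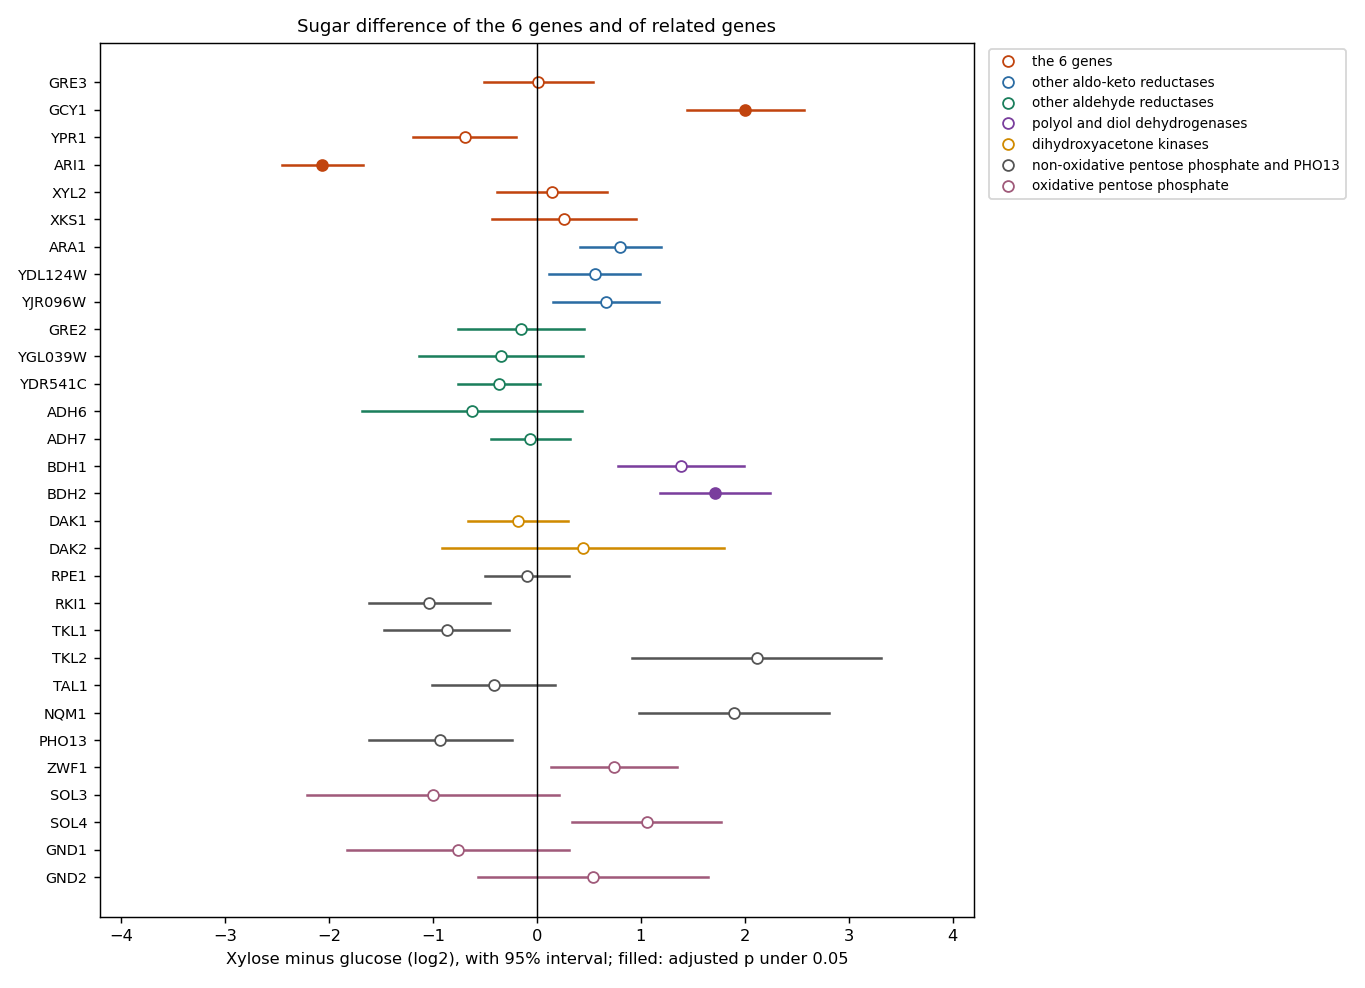
Fitted difference between xylose and glucose (log2) with its 95% interval for the 6 genes and 24 related genes, coloured by list, with filled points where the limma adjusted p is under 0.05. Filled points are GCY1 at 2.01, BDH2 at 1.71 and ARI1 at -2.06.

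The dihydroxyacetone kinases follow GCY1 in the use of glycerol through dihydroxyacetone. DAK1 was at -0.18 and DAK2 at 0.44 on xylose, and limma called 0 of 2, also at an unadjusted p under 0.05. DAK2 was at 914 on xylose and 213 on glucose in petite cells, at 123 and 184 under oxygen limitation, and at 121 and 139 in aerobic cells. As with the SOR probe set, the petite xylose array was the highest.

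Downstream of xylulokinase, limma called 0 of 6 non-oxidative pentose phosphate genes and PHO13 on xylose, with 2 higher and 3 lower at an unadjusted p under 0.05, and the 7 had a median of -0.42. The highest estimates were 2.11 for TKL2, a minor transketolase gene, and 1.90 for NQM1, which encodes a paralog of transaldolase, and the lowest was -1.03 for RKI1, the ribose-5-phosphate ketol-isomerase gene. Between oxygen-limited and aerobic cells 1 of the 7 was called higher and 2 lower, against 8.04% and 16.0% of all genes. NQM1 was higher by 1.93 (limma adjusted p = 0.0370), the ribulose-phosphate epimerase gene RPE1 was at -2.22 (limma adjusted p = 0.0168) and RKI1 at -1.15 (limma adjusted p = 0.0422). NQM1 passed in 6 of 7 alternatives, RPE1 in 7 and RKI1 in 4. Of 5 oxidative pentose phosphate genes, whose route supplies NADPH, limma called 0 on xylose, with 2 higher and 0 lower unadjusted and a median of 0.54. Their sugar estimates had both signs, so the median does not stand for the list. The highest was 1.056 for the lactonase gene SOL4, followed by ZWF1 at 0.742 and GND2 at 0.542. GND1 was at -0.759, and the lowest was -1.001 for SOL3. GND1 and SOL3 were each lower in 2 of 3 pairs and higher in 1, the aerobic pair. In aerobic cells GND1 was at 2926 on xylose and 2350 on glucose, and SOL3 at 1009 and 756. In petite cells GND1 was at 470 and 1775, and SOL3 at 255 and 1082. GND2 was higher in 2 of 3 pairs and lower in the petite pair, at 191 and 268. Under oxygen limitation limma called 1 of these 5 genes higher, against 8.04% of all genes. It was SOL4 at 1.53 (limma adjusted p = 0.0362), which passed in 6 of 7 alternatives. None of the related genes was called between petite and aerobic cells, where 5 of the 7 non-oxidative genes and PHO13 were lower and 1 higher at an unadjusted p under 0.05 in limma, against 22.2% and 11.7% of all genes.

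Genes with the pattern most like each of the 6 were found by Pearson's r over the 6 arrays among 2321 or 2322 genes with a standard name, all arrays above the floor and a range of at least 1 on the log2 scale. The arrays share labelling and scaling, and these values are descriptions. GCY1 was most like HXK1, the glucose-repressed hexokinase (r = 0.98), the quinone oxidoreductase ZTA1 (r = 0.98) and BNS1 (r = 0.98), and 1.90% of genes had an r above 0.9 with it. HXK1 was at 3386 on xylose and 525 on glucose in petite cells, at 3868 and 516 under oxygen limitation and at 2467 and 333 in aerobic cells. ARI1 was most like MIG2, a glucose-induced repressor (r = 1.00), followed by ALG5, a glucosyltransferase of protein glycosylation (r = 0.97), and SST2, a regulator of pheromone signalling (r = 0.96). MIG2 was at 155 on xylose and 326 on glucose in petite cells, at 171 and 400 under oxygen limitation and at 151 and 322 in aerobic cells.

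The other 4 genes followed other patterns. YPR1 was most like the phosphoglucomutase gene PGM1 (r = 0.98), CKS1 and NOP8 (r = 0.97 for both). XYL2 was most like AAD14, a putative aryl-alcohol dehydrogenase gene (r = 0.99), the clathrin adaptor gene APM2 (r = 0.98) and the enolase gene ENO1 (r = 0.98). ENO1 was at 1153 on xylose and 1874 on glucose in petite cells, at 2165 and 1272 under oxygen limitation and at 903 and 552 in aerobic cells. XKS1 was most like POR1, the mitochondrial porin gene (r = 0.99), the cardiolipin synthase gene CRD1 (r = 0.96) and UGP1, of UDP-glucose synthesis (r = 0.95). GRE3 was most like IAI11 (r = 0.98), the dynein gene DYN1 (r = 0.93) and PRY2 (r = 0.92), and only 0.129% of genes had an r above 0.9 with it.

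Among the 6 genes themselves, GCY1 ran against ARI1 (r = -0.88) and against YPR1 (r = -0.79), and ARI1 and YPR1 ran together (r = 0.78). The r of GRE3 with each of the other 5 lay between -0.27 and 0.33. Over the whole design ARI1 spanned 5.74-fold and GCY1 7.39-fold, wider than 94.7% and 96.8% of genes. YPR1, XYL2 and XKS1 spanned 2.41-fold, 2.52-fold and 2.56-fold, wider than 62.1%, 65.8% and 67.3% of genes.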

How the data were processed

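The data are linear intensity values per probe set, 1 array per condition, as the authors deposited them. Per the labels, labelling, hybridisation and scanning followed the manufacturer; the software, averaging and scaling behind the deposited values were not given in the sources used here. The table lists 9335 probe sets, with 60 controls and 1 empty entry. Of the other 9274, GEO's platform annotation gives 6504 a single gene symbol, 328 more than 1 and 2442 no symbol.

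Arrays were scaled to a common median, the 25th percentile (61.7) replaced all lower values, and log2 values were used. Each gene was represented by its brightest probe set on average, and a gene with at least 1 array above the floor was tested. A model with background and sugar was fitted with limma 3.58.1 in R 4.3.3 (2 residual degrees of freedom, Benjamini-Hochberg adjustment, threshold 0.05). The residual is the variation of the sugar difference between backgrounds, so the test assumes that sugar acts alike in each, and the p-values hold no spread between replicate cultures. Tables were made with pandas 2.3.3. Differences between single arrays have no test. The fit was tested on simulated arrays with independent noise, in which each added change was the same on all arrays of the changed group. That test does not cover a sugar effect that varies between backgrounds.

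The members and lists were chosen with earlier results of these data known. All members are named. Of the related lists, the highest, the lowest and the called genes were to be named; the other members named were added after their values were seen. For each member the 3 genes most alike were named. No sequences or genome positions were used here. Alternatives tried were a lower and a higher floor (10th and 40th percentile), quantile normalization, no scaling, the mean over probe sets, a variance trend, removal of a running median along probe set numbers (window 201), leaving out array pairs, and 3-fold in place of 2-fold.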

Additional observations from a re-analysis of the deposited data

Results flagged for a closer look

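The sugar difference of 3 genes, and a background difference of 2, had opposite signs in the groups compared. With 1 array per condition, none of these differences was tested. For GRE3, xylose minus glucose in petite cells, less the same in oxygen-limited or in aerobic cells, came to -0.75 on the log2 scale in either case. The petite and aerobic arrays likewise give -0.75 for GRE3 when petite minus aerobic on xylose is set against that on glucose. For XYL2 the sugar difference in petite cells minus that in oxygen-limited cells was -0.85, and minus that in aerobic cells -0.59. For XKS1 these values were -1.12 and -1.16. For YPR1, oxygen-limited minus aerobic on xylose, set against that on glucose, differed by -0.66. Among all genes, 19.4% had a petite minus aerobic difference larger than that of GRE3, 28.9% one larger than that of XYL2 and 6.77% one larger than that of XKS1, in either direction.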

How the results depend on the processing

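On xylose against glucose, limma called 1 gene higher and 1 lower. When the floor was the 40th percentile it called 0 and 0 (1 and 2 at an unadjusted p under 0.05), as it did without the oxygen-limited pair (1 and 1 unadjusted) and without the petite pair (2 and 2 unadjusted), and it called 0 higher with the mean over probe sets (1 unadjusted). Over all genes, limma also called 0 higher and 0 lower with that floor and without the oxygen-limited pair. It called 12 and 0 without the petite pair, and 22 and 2 with the mean over probe sets. Over its 10 alternatives GCY1 ran from 1.74 to 2.21 (limma adjusted p from 0.0153 to 0.203) and ARI1 from -2.14 to -1.97 (limma adjusted p from 0.00593 to 0.144). Estimates near 0 changed sign: GRE3 was at -0.016 with quantile normalization, -0.11 without the aerobic pair and -0.11 without the oxygen-limited pair, and XYL2 at -0.041 without the oxygen-limited pair. Between oxygen-limited and aerobic cells, limma called 3 genes higher with the values as deposited and 1 each with the floor at the 10th percentile and with the probe set number trend removed, against 0 otherwise. There GRE3 turned to 0.17, 0.049 and 0.0019, and YPR1 to 0.24, 0.085 and 0.058, with the values as deposited, quantile normalization and the trend removed. Leaving the values as deposited moved the median of all genes in this comparison to 0.21, against -0.08 after scaling, and the calls over all genes to 1032 higher and 433 lower, against 439 and 873. On xylose against glucose the calls over all genes ran from 0 to 91 higher and 0 to 23 lower, against 37 and 4. Over all genes, the counts called between petite and aerobic cells ran from 0 to 220 higher and 0 to 421 lower across alternatives, against 1 and 1, and none included the 6 genes. Of 42 differences between single arrays, 7 were at least 2-fold higher and 5 lower. Among all genes, by pair, between 3.13% and 9.36% were at least 2-fold higher and between 2.1% and 15.4% lower. The 42 differences share arrays with one another and are not separate observations. At 3-fold the counts were 3 and 3, and no share of all genes is given for 3-fold. The cause of these changes with the processing was not tested. The fit pairs arrays by background and by sugar. With 1 array per condition there were no replicates to pair further. With the values as deposited, petite against aerobic arrays no longer separated for XKS1 and YPR1. Leaving out a sugar leaves no residual degree of freedom, so those values have no test.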
